A study of Mus musculus with 21 samples.

Results

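The Eph receptors and their ephrin ligands, the semaphorins with their plexin and neuropilin receptors, the Slits with the Robos, and the netrins with the Unc5 receptors are the main families of guidance cues and guidance receptors. Their genes were taken by symbol alone, which gave 68 of the 24594 genes of each count table. They comprised 14 Eph receptors, 8 ephrins, 20 semaphorins, 9 plexins, 2 neuropilins, 3 Slits, 4 Robos, 4 netrins and 4 Unc5 receptors, that is, 35 ligands and 33 receptors or co-receptors. Expression was read in 21 RNA-seq libraries from mouse embryos on a mixed C57Bl/6J;CD1 background, in 7 groups of 3 biological replicates with both sexes pooled. In the first series, pharyngeal arch 2 (PA2) and pharyngeal arch 3 (PA3) were micro-dissected at E10.5 from wild-type (WT) and HIRE1del/del embryos. HIRE1 is a distal regulatory region of the Hoxa cluster on mouse chromosome 6, deleted on both alleles by CRISPR. The labels call these samples cranial neural crest cells (CNCCs), but no sorting is stated for them. In the second series, RFP-positive CNCCs were sorted from Wnt1::Cre;ROSA-RFP embryos, either out of E10.5 PA2 or, at E12.5 and E14.5, out of the pinna, the external ear that PA2 gives rise to. The Wnt1 promoter drives Cre in crest cells before they migrate, so that all of their descendants, nerve and pigment cells included, can carry the reporter. The cells were released with trypsin at E10.5 and E12.5 and with papain at E14.5. Stage and tissue (PA2 or pinna) therefore cannot be told apart between E10.5 and E12.5, nor stage and enzyme between E12.5 and E14.5. Between E10.5 and E14.5 stage, tissue and enzyme all differ and cannot be told apart.

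Guidance cues repel or attract growing axons and migrating cells. Eph receptors are receptor tyrosine kinases that bind ephrins on neighbouring cells. The A class mostly binds ephrin-As, which are held in the membrane by a lipid anchor, and the B class mostly binds ephrin-Bs, which span it. Class 3 semaphorins are secreted and mostly signal through a neuropilin joined to a plexin, whereas semaphorins of the other vertebrate classes are bound to the membrane and mostly contact plexins directly. Slits are secreted ligands of the Robos, and netrin-1 binds Dcc, neogenin and the Unc5 receptors. In the head these systems are known to keep crest streams apart, to sort cells at borders and to steer the nerves and vessels that enter the arches.

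Totals were 25.8 to 32.21 M counts per library in the first series and 25.81 to 49.06 M in the second, where the E14.5 libraries were deepest (47.51 to 49.06 M). Levels are given as RPKM, which here is CPM (counts scaled to the library total) after TMM scaling, divided by the exon length in kilobases. The deletion was checked through Hoxa2, at 32.5, 34.2 and 37.3 RPKM in PA2 WT and 2.54, 2.1 and 3.14 RPKM in PA2 HIRE1del/del, and at 24.8, 27.9 and 28.8 RPKM in PA3 WT and 9.8 to 11.3 RPKM in PA3 HIRE1del/del. Hoxa2 was thus lower in every HIRE1del/del library than in any WT library of its arch. The crest mesenchyme markers (Twist1, Prrx1, Prrx2, Pdgfra, Dlx2 and Dlx5) were detected in all groups, with summed levels of 655 to 1151 CPM in the arches and 1627 to 3990 CPM in the sorted cells. The arch libraries also held blood, endothelial and epithelial transcripts. The summed endothelial markers were at 177 to 268 CPM in the arches and 2.62 to 9.62 CPM in the sorted cells, and Cldn5 of that list was at 0 in every group. In such bulk libraries fewer cells of a type and less RNA per cell cannot be told apart.

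The guidance genes took 0.388 to 0.442% of all counts in an arch library. In the sorted cells they took 0.512 to 0.587% at E10.5, 0.871 to 0.916% at E12.5 and 0.789 to 0.802% at E14.5. Summed over the 68 genes, the level was 791 ± 44.6 RPKM (SD, n = 3) in sorted E10.5 PA2 cells, 1141 ± 36.7 RPKM in E12.5 pinna cells and 1119 ± 41 RPKM in E14.5 pinna cells. In the arches it was 633 ± 21.5 RPKM in PA2 WT, 628 ± 15.4 RPKM in PA2 HIRE1del/del, 620 ± 26.5 RPKM in PA3 WT and 590 ± 16.2 RPKM in PA3 HIRE1del/del. Most of the genes were present, since 48, 48, 52 and 51 of the 68 had a mean of at least 1 RPKM in these 4 arch groups, and 46, 51 and 57 had it at the 3 stages. The series were normalized separately, so no test sets the arch and sorted libraries against each other. Ephb4, a B-class receptor best known from veins, had the highest mean among the Eph receptors in each of the 7 groups, at 53.5 ± 3.93 RPKM in PA2 WT and 77.2 ± 3.36 RPKM in sorted E10.5 cells. Its ligand Efnb2 led the ephrins in 6 of the 7 groups, with 51 ± 2.63 RPKM in PA2 WT and 72.6 ± 4.01 RPKM in the E12.5 pinna. Plxnb2, the receptor of class 4 semaphorins, led the plexins and neuropilins in the same 6 groups, at 53.5 ± 2.5 RPKM in PA2 WT, and one of its ligands, Sema4c, was the highest semaphorin there at 23.2 ± 0.434 RPKM. At the other end Robo3, a Robo that lowers the response to Slit in commissural axons, and Sema4f failed the expression filter in both series.

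**Figure D1:**
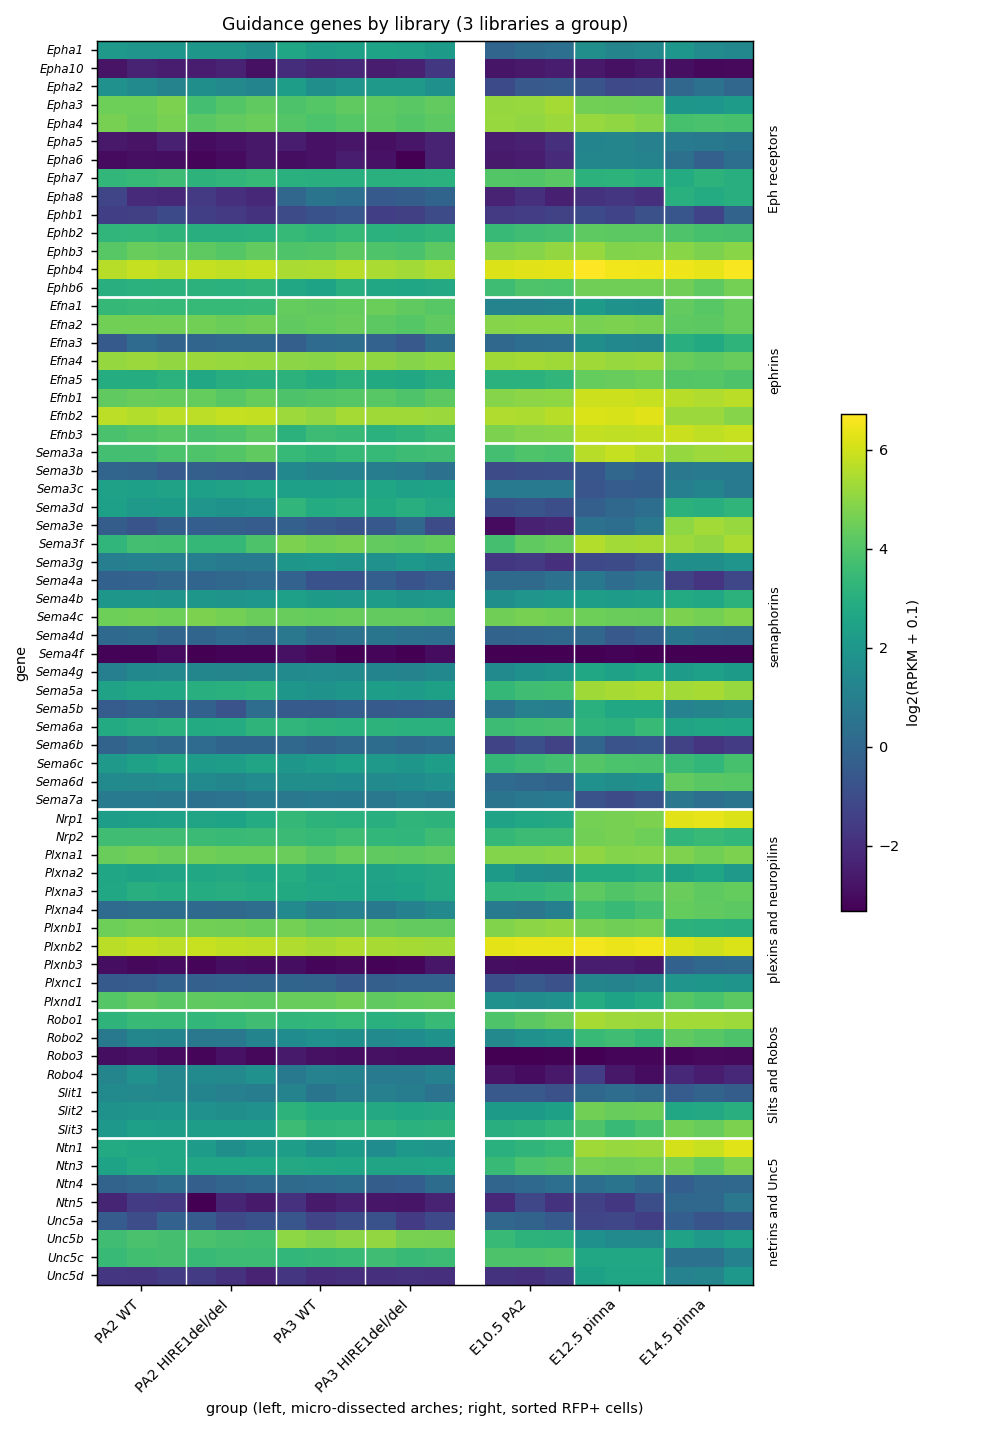
Level of the 68 guidance genes (rows, by family) in the 12 arch libraries (left) and the 9 sorted libraries (right), 3 columns per group, coloured by log2(RPKM + 0.1). The bright rows of Ephb4, Efnb2 and Plxnb2 run through all groups, whereas Sema3e, Epha8, Unc5d, Epha5 and Epha6 are dark in sorted E10.5 cells and light up in the pinna.

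A gene was tested where at least 2 libraries of its series reached 1 CPM, and was called at an adjusted p below 0.05 (edgeR quasi-likelihood test, Benjamini-Hochberg adjustment over all genes tested). In the arches 63 of the 68 guidance genes were tested, all but Epha6, Robo3, Ntn5, Plxnb3 and Sema4f, which stayed at or below 0.526 CPM. In the sorted cells 64 were tested, all but Epha10, Robo3, Robo4 and Sema4f. Of the tested genes, Epha6, Epha8, Ntn5, Plxnb3 and Sema3e were below 1 CPM in every library of at least 1 stage, and Epha5 and Epha10 in every library of at least 1 arch group, so that these entered the test through the groups where they were high. Exons of some of these genes overlap others, chiefly Epha1 with Zyx (236 bases, 6.01% of its exons) and Ntn5 with Sec1 (519 bases, 23.4%), both on opposite strands, and reads there cannot be told apart with an unstranded kit. For Ephb4, Epha10, Unc5a, Ntn3, Nrp1 and Sema4a the shared part was 33 to 89 bases.

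The first question was which guidance genes changed when HIRE1 was deleted. In PA2, Sema5a rose and Ntn1 fell in HIRE1del/del embryos, and none of the other 61 tested guidance genes passed the test. These 2 of 63 are 3.17%, beside 0.438% of all 14383 genes tested. Sema5a, a transmembrane semaphorin with thrombospondin repeats, stood at 5.51, 6.44 and 6.49 RPKM in WT and 7.74, 8.34 and 8.91 RPKM in HIRE1del/del. All 3 mutant libraries were above all 3 WT libraries (log2 fold change 0.44 ± 0.0804 (SE), adjusted p = 0.0309, edgeR). Ntn1, the secreted ligand netrin-1, stood at 7.01, 6.21 and 6.47 RPKM in WT and 4.43, 3.15 and 3.94 RPKM in HIRE1del/del, again without overlap (log2 fold change -0.77 ± 0.145 (SE), adjusted p = 0.0354, edgeR). Both calls depended on single libraries. Sema5a had an edgeR adjusted p of 0.119, 0.0725 and 0.0748 without WT replicate 1, 2 or 3 and of 0.115 and 0.0978 without HIRE1del/del replicate 2 or 3. Ntn1 had 0.135, 0.09 and 0.124 without the WT replicates in the same order and 0.165 and 0.0828 without HIRE1del/del replicate 2 or 3. Without HIRE1del/del replicate 1 both stayed below 0.05, each at 0.0393. The Sema5a fold change lay between 0.37 and 0.49 and that of Ntn1 between -0.89 and -0.65 (log2) over these fits.

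The window around the annotated Sema5a start is shown because Sema5a was the one guidance gene that the edgeR test called higher in mutant PA2. The window runs from 250 bases before to 50 after the start (GRCm38.p6, chr15:32244563-32244862, plus strand, RefSeq). It is 71.3% G and C, and holds none of the 3 motifs searched on both strands. One was TGATNNAT, a site that HOX and PBX proteins can bind together. Another was TGACAG, a site of the HOX cofactors of the MEIS family. The last was the TATA box, searched as TATAAA. The window is therefore printed without capitals.
Sema5a: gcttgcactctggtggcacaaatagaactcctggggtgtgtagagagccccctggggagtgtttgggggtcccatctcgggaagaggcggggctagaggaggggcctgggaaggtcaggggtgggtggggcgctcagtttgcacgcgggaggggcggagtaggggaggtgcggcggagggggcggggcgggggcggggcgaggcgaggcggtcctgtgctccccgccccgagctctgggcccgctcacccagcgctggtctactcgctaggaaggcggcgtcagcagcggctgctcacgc
Among 32851 windows of the same length around all annotated starts, 8.85% hold the HOX-PBX motif, 19.2% the MEIS motif and 13.6% the TATA box. The table of windows gave 75 for 59 of the 68 guidance genes, in which the shares were 1.33%, 17.3% and 2.67%. The median share of G and C was 64.3% in the guidance windows and 52.7% in all windows.

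The next genes in PA2 were Eph receptors and missed the threshold in the main edgeR fit. Epha3, an A-class receptor known from motor axons, was at 22.9, 22.4 and 26.7 RPKM in WT and 13.3, 16.2 and 19.2 RPKM in HIRE1del/del (log2 fold change -0.56 ± 0.121 (SE), adjusted p = 0.0732, edgeR). Ephb2 was at 9.81, 9.98 and 9.08 RPKM and 8.07, 8.05 and 8.16 RPKM (log2 fold change -0.25 ± 0.0537 (SE), adjusted p = 0.0732, edgeR). Epha4, which binds ephrins of both classes, was at 25.4, 22.2 and 25.2 RPKM and 17.9, 19.6 and 21.4 RPKM (log2 fold change -0.31 ± 0.078 (SE), adjusted p = 0.175, edgeR). In these 3 receptors every mutant library was below every WT library. Libraries were also separated by genotype for Slit2, Nrp2 and Efnb2, at edgeR adjusted p of 0.602, 0.614 and 0.671. The share of all genes separated in this way was not counted. Sema3a, the secreted ligand of Nrp1 and plexin-As, was at 13.3, 13.3 and 14.6 RPKM in WT and 15.5, 16.3 and 19.3 RPKM in HIRE1del/del, with all mutant libraries higher (log2 fold change 0.31 ± 0.0815 (SE), adjusted p = 0.203, edgeR). These 4 genes were picked after their values were seen, and all 4 passed with DESeq2 (adjusted p = 0.000549, 0.0058, 0.0224 and 0.0337 for Epha3, Ephb2, Epha4 and Sema3a). Epha3 also passed with edgeR when no expression filter was used (adjusted p = 0.0283). With 1 library left out, the edgeR adjusted p of Epha3 ran from 0.019 to 0.356. At an unadjusted p below 0.05 there were 9 of 63 guidance genes (14.3%), beside 1233 of all genes (8.57%), and the median log2 fold change was -0.05 beside -0.01. None of the 6 neuronal, 3 glial and 2 chondrocyte markers tested was called. The summed neuronal list was at 81.5 to 83.6 CPM in PA2 WT and 60.4 to 64.7 CPM in PA2 HIRE1del/del, and the glial list at 44.2 to 49.5 and 33 to 41.2 CPM. The chondrocyte list was at 784 to 899 CPM in PA2 WT and 967 to 1051 CPM in PA2 HIRE1del/del, with Matn1 at 0 in both. The part of these shifts in the guidance genes was not tested.

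In PA3 no guidance gene passed the edgeR test, beside 0.216% of all genes. The median log2 fold change was -0.09, beside -0.00 over all genes. At an unadjusted p below 0.05 there were 13 of 63 (20.6%, beside 9.73% of all genes), limma-voom called 0, and DESeq2 called 2, Sema5a higher (adjusted p = 0.0194) and Ephb2 lower (adjusted p = 0.0356). Sema5a was at 3.94, 3.45 and 3.85 RPKM in WT and 4.68, 4.42 and 5.17 RPKM in HIRE1del/del, so that the mutant libraries were the higher ones in PA3 too (log2 fold change 0.34 ± 0.0817 (SE), adjusted p = 0.179, edgeR). Ntn1 was at 4.71, 3.43 and 4.34 RPKM in PA3 WT and 2.83, 3.95 and 3.65 RPKM in PA3 HIRE1del/del, and the groups overlapped (log2 fold change -0.26 ± 0.146 (SE), adjusted p = 0.603, edgeR). Epha3 was at 14.9, 16.7 and 19.5 and 18.9, 17.6 and 20 RPKM, with overlap as well (log2 fold change 0.14 ± 0.121 (SE), adjusted p = 0.742, edgeR). The summed glial markers were at 98.8 to 133 CPM in PA3 WT and 88.6 to 97.8 CPM in PA3 HIRE1del/del. The endothelial markers were at 253 to 268 and 244 to 252 CPM, and the ranges of the other marker lists overlapped. None of the glial and endothelial markers was called. The part of these shifts in the guidance genes was not tested.

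Whether the deletion acted differently in the arches was tested as the genotype effect in PA2 minus that in PA3. No guidance gene passed with edgeR or limma-voom, beside 0.0487% of all genes, 7 of 63 had an unadjusted p below 0.05 (11.1%, beside 5.52% of all genes), and DESeq2 called 1, Epha3. For Epha3 the difference was -0.71 ± 0.171 (log2, SE) with an edgeR adjusted p of 0.504. PA2 and PA3 libraries of the same genotype and replicate number deviated together (r = 0.226 to 0.394). The labels state no pairing, however, and libraries of different genotypes reached r = 0.315. With a replicate block that treats same-numbered PA2 and PA3 libraries as pairs, the Epha3 difference was -0.73 ± 0.106 and its edgeR adjusted p was 0.021. The same block left Epha4 at an adjusted p of 0.0639 and Ntn1 at 0.556 (edgeR), from differences of -0.45 and -0.52. Epha3 was the one guidance gene whose response to the deletion was called different between the arches in this blocked fit. It was not called in the unblocked edgeR fit. Its mutant libraries were lower than WT in PA2 and overlapped WT in PA3.

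**Figure D2:**
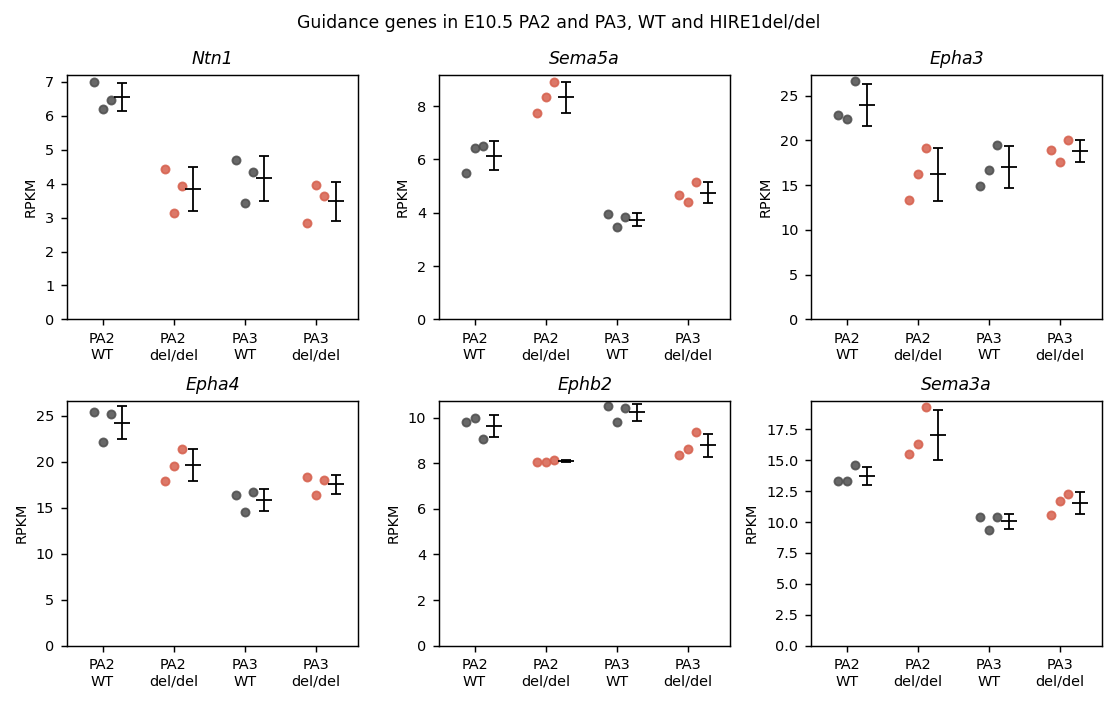
RPKM of Ntn1, Sema5a, Epha3, Epha4, Ephb2 and Sema3a in the 4 E10.5 arch groups, axes from 0. Points are the 3 libraries of a group, bars the mean and SD. In PA2 the mutant libraries of Ntn1, Epha3, Epha4 and Ephb2 lie below all WT libraries and those of Sema5a and Sema3a above them. In PA3 the groups of Ntn1, Epha3 and Epha4 overlap.

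The arches were then compared within each genotype, and far more guidance genes were called than between the genotypes. In WT embryos 19 of 63 guidance genes were higher in PA3 than in PA2 (30.2%, beside 19.1% of all genes) and 16 were lower (25.4%, beside 17.4%), with a median log2 fold change of -0.03 over the tested guidance genes and -0.00 over all genes. In HIRE1del/del embryos, which share no library with the WT comparison, 15 were higher (23.8%, beside 18.7%) and 16 lower (25.4%, beside 14.7%), with medians of -0.06 and -0.00. All 25 genes called in both genotypes moved the same way, 15 up and 10 down, which is 71.4% of the WT calls and 80.6% of the HIRE1del/del calls. Over all genes these shares were close to that, at 69.1% and 75.5%, and 99.9% of the 3630 genes called in both moved the same way.

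The secreted ligands Slit2 and Slit3 were among the genes higher in PA3. Slit2 was at 3.39, 3.6 and 3.8 RPKM in PA2 WT and 8.85, 7.34 and 7.29 RPKM in PA3 WT (log2 fold change 1.12 ± 0.0713 (SE), adjusted p = 3.07e-07, edgeR), and its fold change in HIRE1del/del was 1.02. Slit3 was at 4.03, 5.01 and 4.87 RPKM in PA2 WT and 11.9, 9.18 and 9.67 RPKM in PA3 WT (log2 fold change 1.14 ± 0.101 (SE), adjusted p = 3.13e-06, edgeR), with 0.89 in HIRE1del/del. In both Slits every PA3 library exceeded every PA2 library. Slit1 went the other way in WT, from 2.6, 2.55 and 2.4 to 2.14, 1.38 and 1.74 RPKM (log2 fold change -0.52 ± 0.159 (SE), adjusted p = 0.0212, edgeR), a call lost without PA2 WT replicate 1 or 2 or PA3 WT replicate 2 or 3 (adjusted p = 0.0581, 0.052, 0.0918 and 0.0559). Unc5b, a netrin receptor known from blood vessels, was at 12.6, 14.2 and 13.4 RPKM in PA2 WT and 32.4, 28.4 and 31.4 RPKM in PA3 WT (log2 fold change 1.20 ± 0.102 (SE), adjusted p = 2.32e-06, edgeR) and rose by 1.08 in HIRE1del/del. Its ligand Ntn1 was lower in WT PA3 than in WT PA2 (log2 fold change -0.66 ± 0.144 (SE), adjusted p = 0.0032, edgeR). In HIRE1del/del, where PA2 itself had less Ntn1, the fold change was -0.14 and missed the threshold (adjusted p = 0.485, edgeR).

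Of the 7 class 3 semaphorins, 4 were higher (57.1%, beside 19.1% of all genes in WT and 18.7% in HIRE1del/del) and 1 was lower (14.3%, beside 17.4% and 14.7%) in PA3 in each genotype. Sema3b was at 0.876, 0.808 and 0.645 RPKM in PA2 WT and 2.45, 2.18 and 2.1 RPKM in PA3 WT (log2 fold change 1.53 ± 0.157 (SE), adjusted p = 1.05e-05, edgeR). Sema3f, the Nrp2 ligand that repels trunk and cranial crest, was at 9.64, 13.3 and 12.7 and 26.8, 24.3 and 25 RPKM (log2 fold change 1.10 ± 0.139 (SE), adjusted p = 5.81e-05, edgeR). Sema3g and Sema3d rose by 0.97 and 0.85 (log2), and the 4 fold changes in HIRE1del/del were 1.25, 0.72, 1.01 and 0.98. Sema3a was the member that fell, by 0.45 in WT and by 0.56 in HIRE1del/del on the log2 scale. Among receptors, Nrp1 was at 4.88, 5.01 and 5.28 RPKM in PA2 WT and 10.3, 8.96 and 8.46 RPKM in PA3 WT (log2 fold change 0.87 ± 0.103 (SE), adjusted p = 3.37e-05, edgeR), and Plxna4 rose by 1.01 in WT and 0.99 in HIRE1del/del. Plxnb2 fell by 0.25 in WT and by 0.43 in HIRE1del/del on the log2 scale. Of the guidance genes called lower, Sema5a fell most in both genotypes, to 3.94, 3.45 and 3.85 RPKM in PA3 WT from the PA2 values above (log2 fold change -0.71 ± 0.0816 (SE), adjusted p = 2.66e-05, edgeR), with -0.81 in HIRE1del/del. Sema4a was lower in PA3 of HIRE1del/del embryos (log2 fold change -0.60 ± 0.201 (SE), adjusted p = 0.0348, edgeR). In WT it had -0.50 and missed the threshold (adjusted p = 0.0697, edgeR), which it passed with the replicate block (0.0482), with limma-voom (0.0424) and without PA3 WT replicate 1 (0.00835). The HIRE1del/del call was lost without any of 4 of the 6 libraries (Sema4a adjusted p = 0.073 and 0.104 without PA2 HIRE1del/del replicate 2 or 3, and 0.125 and 0.0511 without PA3 HIRE1del/del replicate 2 or 3).

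Of the 13 Eph receptors tested, 4 were higher (30.8%, beside 19.1% of all genes) and 5 lower (38.5%, beside 17.4%) in WT PA3, and of the 8 ephrins 1 was higher and 4 were lower. The WT calls of Epha1, Epha2 and Ephb1 (higher) and Ephb4 (lower) were each lost in at least 1 fit that left out 1 library. Their highest edgeR adjusted p in such fits was 0.0508, 0.184, 0.128 and 0.105. Epha8, an A-class receptor known from the midbrain, had the steepest rise, from 0.329, 0.127 and 0.118 RPKM in PA2 WT to 0.885, 1.36 and 1.17 RPKM in PA3 WT (log2 fold change 2.60 ± 0.338 (SE), adjusted p = 7.3e-05, edgeR), but the PA2 WT values rest on 40, 17 and 18 counts. Epha3, Epha4 and Epha7 fell in WT by 0.49, 0.61 and 0.45 on the log2 scale. In HIRE1del/del the Epha7 fold change was -0.22, whereas Epha3 and Epha4 had 0.22 and -0.16 and were not called (adjusted p = 0.195 and 0.131). With the block both were called, Epha3 higher in mutant PA3 (0.23, adjusted p = 0.0303, and 0.0376 unpaired without PA2 HIRE1del/del replicate 3) and Epha4 lower (-0.16, adjusted p = 0.0444), so the Epha3 arch difference was of opposite sign in the genotypes. The 3 ephrin-Bs all fell in WT, Efnb1 by 0.34, Efnb2 by 0.43 and Efnb3 by 0.59. Efnb2 was at 52.5, 48 and 52.5 RPKM in PA2 WT and 37.7, 34 and 41.5 RPKM in PA3 WT. In HIRE1del/del Efnb2 and Efnb3 fell by 0.52 and 0.73. The receptor Ephb6, whose kinase is inactive, fell by 0.46 in HIRE1del/del and by 0.33 in WT (adjusted p = 0.0233, edgeR), the WT call being lost without PA2 WT replicate 2 or 3 or PA3 WT replicate 1 or 2 (adjusted p up to 0.102). Efna1, an ephrin first known from endothelium, rose by 0.91 in WT and 0.86 in HIRE1del/del.

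Markers of other cell types moved with the arch. All 5 tested endothelial and all 6 neuronal markers were called higher in WT PA3, as were 4 of 6 epithelial, 3 of 5 blood and 2 of 3 tested glial markers (Sox10 and Erbb3). Of the 6 crest mesenchyme markers 5 were called lower and 1, Prrx2, higher (0.65), and the epithelial marker Krt14 was called lower (-2.80). From PA2 WT to PA3 WT the summed endothelial markers went from 177 to 195 CPM up to 253 to 268 CPM, the epithelial markers from 184 to 204 up to 407 to 524 CPM, the neuronal markers from 81.5 to 83.6 up to 170 to 232 CPM, the glial markers from 44.2 to 49.5 up to 98.8 to 133 CPM, and the blood markers from 1318 to 2082 up to 10469 to 20889 CPM. The crest mesenchyme markers went from 1017 to 1134 CPM down to 655 to 826 CPM. The chondrocyte markers went from 784 to 899 CPM down to 648 to 739 CPM. Both tested chondrocyte markers, Sox9 and Col2a1, and 2 of 5 muscle markers, Myf5 and Pax7, were called lower. Of 4 melanoblast markers 1 was called higher. In HIRE1del/del each list had the same numbers called higher and lower, except muscle with 1 higher and 1 lower. There the chondrocyte markers went from 967 to 1051 CPM down to 613 to 666 CPM. The part of these shifts in the arch differences was not tested. Robo4, the Robo of endothelial cells, was lower in WT PA3, at 2.3, 3.25 and 2.4 RPKM in PA2 and 1.56, 2.11 and 2.04 RPKM in PA3 (log2 fold change -0.47 ± 0.16 (SE), adjusted p = 0.0334, edgeR). This call was lost without PA2 WT replicate 2 (adjusted p = 0.159) or PA3 WT replicate 1 or 3 (0.132 and 0.0545). In HIRE1del/del Robo4 fell by 0.66 on the log2 scale.

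**Figure D3:**
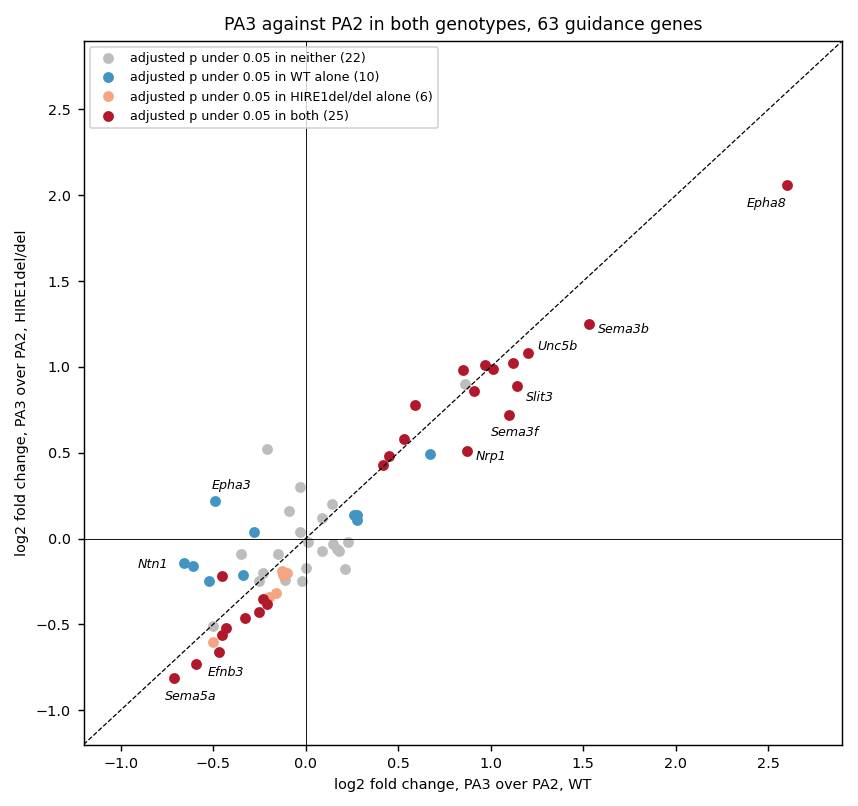
Log2 fold change of PA3 over PA2 in HIRE1del/del (y axis) against WT (x axis) for the 63 tested guidance genes, coloured by where the edgeR adjusted p was below 0.05; the dashed line marks equal change. The 25 genes called in both (red) lie on 1 side of 0 in both genotypes, and Epha3, Epha4 and Ntn1 lie above the line.

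The second series asked how expression changes as PA2 crest becomes pinna, and there most guidance genes moved. From sorted E10.5 PA2 cells to the E12.5 pinna 42 of 64 rose (65.6%, beside 35.0% of all genes) and 11 fell (17.2%, beside 33.7%), with a median log2 fold change of 0.77 beside 0.01 over all genes. Changes of at least 2-fold were met in 24 rises (37.5%, beside 14.8%) and 5 falls (7.81%, beside 6.79%). From E12.5 to E14.5 the numbers were nearly equal, with 26 rises (40.6%, beside 32.6%) and 27 falls (42.2%, beside 33.1%), of which 15 (23.4%, beside 12.2%) and 12 (18.8%, beside 7.53%) were at least 2-fold. The median log2 fold change was -0.08, beside -0.01 over all genes. Over the whole interval 42 rose (65.6%, beside 42.0%) and 13 fell (20.3%, beside 40.0%). The comparisons share libraries with one another. Sorted by the stage at which all 3 libraries stood above the other 6, 7 of the 64 tested genes had their highest level at E10.5 (10.9%, beside 31.7% of all genes), 17 at E12.5 (26.6%, beside 7.24%) and 20 at E14.5 (31.2%, beside 29.9%). The 7 that were highest in early arch crest were Epha3, Epha7, Efna2, Unc5b, Unc5c, Plxnb1 and Sema6a.

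**Figure D4:**
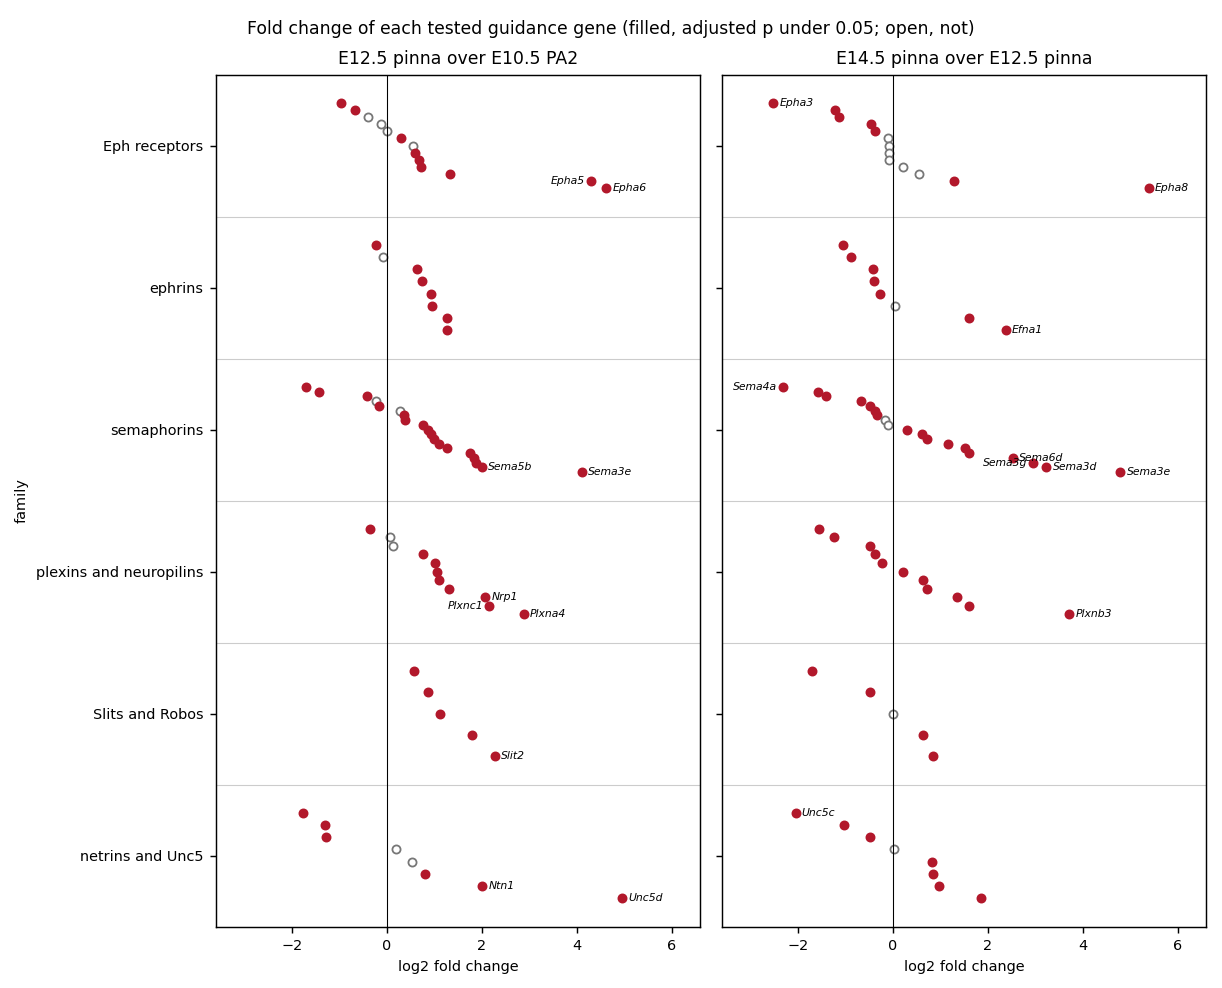
Log2 fold change of each tested guidance gene by family, E12.5 pinna over E10.5 PA2 (left) and E14.5 over E12.5 pinna (right). Filled points have an edgeR adjusted p below 0.05 and genes with changes of at least 2 on the log2 scale are named. In the left panel 42 filled points lie to the right of 0 and 11 to the left, and in the right panel 26 and 27.

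Among the semaphorins the 3 largest rises from E12.5 to E14.5 were of class 3, those of Sema3e, Sema3d and Sema3g. Sema3e, the ligand that binds Plxnd1 without a neuropilin, was at 0.0221, 0.0905 and 0.112 RPKM at E10.5 (5, 20 and 26 counts), 1.26, 1.15 and 1.51 RPKM at E12.5 and 32.2, 40 and 36.3 RPKM at E14.5. The steps between stages do not overlap (log2 fold change 4.11 ± 0.273 (SE), adjusted p = 2.04e-07, and log2 fold change 4.79 ± 0.171 (SE), adjusted p = 3.83e-09, edgeR). Sema3e entered the test through the stages where it was high. Its receptor Plxnd1 rose in the same steps, from 3.29, 2.96 and 3.32 RPKM through 7.29, 5.58 and 6.95 RPKM to 17.5, 14.6 and 18.1 RPKM (log2 fold changes 1.05 and 1.34). Sema3d went from 0.452, 0.511 and 0.433 RPKM through 0.713, 0.912 and 1.13 RPKM to 8.81, 7.76 and 9.39 RPKM (log2 fold change 3.23 ± 0.142 (SE), adjusted p = 1.27e-08 for the second step, edgeR), and Sema3g rose by 1.11 and 2.95. Sema3a followed another course, at 13.2, 15.3 and 14.3 RPKM at E10.5, 49.5, 57.6 and 50 RPKM at E12.5 and 34.7, 38.4 and 39.6 RPKM at E14.5, that is, a rise by 1.88 and then a fall by 0.48 on the log2 scale. Sema3c fell by 1.43 and rose again by 1.61.

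The neuropilins parted at E14.5. Nrp1, which pairs with plexin-As for Sema3a and with Kdr for VEGF, rose from 5.49, 6.19 and 6.67 RPKM through 24.9, 25.4 and 26.5 RPKM to 77.2, 81.7 and 73.8 RPKM (log2 fold change 2.07 ± 0.0769 (SE), adjusted p = 3.21e-09, and log2 fold change 1.60 ± 0.0745 (SE), adjusted p = 1.83e-08, edgeR), and was the highest of all plexins and neuropilins at E14.5. Nrp2, the Sema3f receptor, was at 10.2, 11.7 and 11.9 RPKM, 24.3, 25.3 and 23 RPKM and 9.76, 10.9 and 10.1 RPKM, highest in the middle (log2 fold changes 1.10 and -1.24). Sema3f itself was at 13.6, 19.1 and 20.9 RPKM, 47.2, 40.8 and 41.4 RPKM and 38.5, 34.2 and 43.2 RPKM. Of the plexins, Plxna4 rose by 2.89 and 0.64 and Plxnc1, the Sema7a receptor, by 2.16 and 0.72. Plxnb1, the Sema4d receptor, fell from 28.4, 31.8 and 34.4 RPKM through 25.4, 23.4 and 24.9 RPKM to 8.8, 8.3 and 7.89 RPKM (log2 fold change -1.56 ± 0.0776 (SE), adjusted p = 2.99e-08 for the second step, edgeR). Plxnb3 rose to 0.773, 0.955 and 1.01 RPKM at E14.5 from 11 to 15 counts per library at E12.5 (log2 fold change 3.71 ± 0.226 (SE), adjusted p = 1.29e-07, edgeR). It entered the test through the stage where it was high.

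The membrane-bound semaphorins did not share a course. Sema5a was at 10.2, 12.3 and 12.8 RPKM at E10.5, 39.2, 43 and 44.4 RPKM at E12.5 and 39.8, 42.4 and 35.8 RPKM at E14.5, a rise (log2 fold change 1.84 ± 0.0958 (SE), adjusted p = 3.45e-08, edgeR) followed by overlapping levels (log2 fold change -0.10, adjusted p = 0.348, edgeR). Its paralogue Sema5b rose by 2.00 and fell by 1.58 on the log2 scale. Sema6d, a plexin-A ligand of heart and axon tracts, rose from 1.05, 0.91 and 0.83 RPKM through 3.3, 3.01 and 3.16 RPKM to 19.6, 17.9 and 17.1 RPKM (log2 fold change 1.76 ± 0.0921 (SE), adjusted p = 3.53e-08, and log2 fold change 2.53 ± 0.0854 (SE), adjusted p = 2.71e-09, edgeR), whereas Sema6a fell by 0.41 and 0.68 in turn. Sema7a fell by 1.70 and rose by 1.51. Sema4a fell from 1.57, 1.12 and 1.34 RPKM at E12.5 to 0.284, 0.189 and 0.339 RPKM at E14.5 (log2 fold change -2.31 ± 0.225 (SE), adjusted p = 5.03e-06, edgeR).

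The start windows of Sema3e and Sema6d are shown because both genes rose at each step, Sema3e from almost no counts. The Sema3e window (GRCm38.p6, chr5:14025026-14025325, plus strand, RefSeq) is 50.7% G and C and holds none of the 3 motifs. Sema6d has 2 windows, of which the one with a motif match was picked for display (chr2:124653331-124653630, plus strand). The other holds none of the 3 motifs. The window shown lies inside the gene, whose annotation begins at base 124089969. It is 46.7% G and C, and capitals mark its TGATNNAT match, at bases 140 to 147. This match is the only one in the 75 windows of guidance genes.
Sema3e: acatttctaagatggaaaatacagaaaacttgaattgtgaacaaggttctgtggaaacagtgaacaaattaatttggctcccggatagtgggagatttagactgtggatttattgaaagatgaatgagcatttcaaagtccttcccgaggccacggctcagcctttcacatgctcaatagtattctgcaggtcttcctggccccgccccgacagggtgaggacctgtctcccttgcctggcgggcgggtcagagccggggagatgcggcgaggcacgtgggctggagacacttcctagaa
Sema6d: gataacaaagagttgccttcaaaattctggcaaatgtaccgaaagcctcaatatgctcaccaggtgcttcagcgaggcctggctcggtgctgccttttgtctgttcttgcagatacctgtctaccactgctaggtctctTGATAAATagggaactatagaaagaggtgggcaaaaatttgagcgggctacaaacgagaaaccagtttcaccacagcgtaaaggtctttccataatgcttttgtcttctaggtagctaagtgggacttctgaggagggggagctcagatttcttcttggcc
A match of these letters is a description of the sequence and says nothing of binding.

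Of the 14 Eph receptors 13 were tested, and 7 rose (53.8%, beside 35.0% of all genes) and 2 fell (15.4%, beside 33.7%) from E10.5 to E12.5 while 2 rose (15.4%, beside 32.6%) and 5 fell (38.5%, beside 33.1%) from E12.5 to E14.5. Epha3 fell at each step, from 34.7, 36.4 and 41 RPKM through 24.2, 23.6 and 22.4 RPKM to 3.94, 3.82 and 4.47 RPKM (log2 fold change -0.67 ± 0.078 (SE), adjusted p = 1.56e-05, and log2 fold change -2.52 ± 0.0832 (SE), adjusted p = 2.36e-09, edgeR). Epha4 was at 36.6, 34.4 and 37.3 RPKM, 36.6, 33.2 and 28.8 RPKM and 13.9, 14.2 and 13.9 RPKM, and fell in the second step alone past the threshold (log2 fold change -1.23 ± 0.0804 (SE), adjusted p = 2.2e-07, edgeR). Both were thus high in early arch crest and low in the late pinna. Epha5 and Epha6, receptors best known from the forebrain, appeared at E12.5. Epha5 went from 0.0768, 0.092 and 0.155 RPKM to 2.21, 2.27 and 1.99 RPKM (log2 fold change 4.31 ± 0.191 (SE), adjusted p = 1.08e-08, edgeR) and Epha6 from 0.0633, 0.0714 and 0.136 RPKM to 2.32, 2.26 and 2.17 RPKM (log2 fold change 4.62 ± 0.272 (SE), adjusted p = 8.38e-08, edgeR), and both fell again at E14.5 (log2 fold changes -0.47 and -1.13). Epha8 appeared at E14.5, at 8.17, 7.19 and 7.73 RPKM after 0.181, 0.201 and 0.166 RPKM at E12.5 (log2 fold change 5.39 ± 0.158 (SE), adjusted p = 1.09e-09, edgeR). The low levels rest on 10, 11 and 22 counts for Epha6 at E10.5 and on 23, 29 and 23 for Epha8 at E12.5. Epha6 and Epha8 entered the test through the stages where they were high. Epha7 fell in the first step (log2 fold change -0.96). Ephb4 stayed the Eph receptor with the highest mean, at 73.4, 78.4 and 79.8 RPKM, 106, 91.4 and 88.9 RPKM and 89.9, 82.7 and 97.8 RPKM.

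Of the 8 ephrins 6 rose (beside 35.0% of all genes) and 1 fell (beside 33.7%) in the first step, and 2 rose (beside 32.6%) and 5 fell (beside 33.1%) in the second. The 3 ephrin-Bs rose together by E12.5, Efnb1 by 0.96, Efnb2 by 0.63 and Efnb3 by 0.94 (log2). Efnb2 then fell from 71.1, 69.5 and 77.1 RPKM to 36.9, 37.2 and 30 RPKM (log2 fold change -1.06 ± 0.0886 (SE), adjusted p = 1.45e-06, edgeR), while Efna4 fell over the whole interval (-0.98). Efnb3, at 60.4, 54.4 and 58.4 RPKM, led the ephrins at E14.5. Efna1 rose late, from 2.16, 2.18 and 2.36 RPKM through 4.61, 3.44 and 3.18 RPKM to 19.9, 17.4 and 21.1 RPKM (log2 fold change 2.38 ± 0.135 (SE), adjusted p = 7.73e-08 for the second step, edgeR).

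All 5 tested Slits and Robos rose from E10.5 to E12.5, beside 35.0% of all genes, whereas Robo3 and Robo4 were too low to be tested. Robo1 went from 15.4, 18.4 and 20.7 RPKM to 42.9, 38.6 and 37.2 RPKM (log2 fold change 1.12 ± 0.0979 (SE), adjusted p = 1.61e-06, edgeR) and was then level at 39.8, 40.5 and 37.7 RPKM (log2 fold change -0.01, adjusted p = 0.953, edgeR). Robo2 rose at each step, from 2.57, 3.32 and 3.7 RPKM through 10.9, 12.4 and 10.2 RPKM to 19.1, 17.5 and 15.2 RPKM, and by 2.43 on the log2 scale over the whole interval. The ligands went apart. Slit2 was at 4.35, 4.37 and 5.16 RPKM at E10.5, 24.2, 21.2 and 22.1 RPKM at E12.5 and 6.39, 6.63 and 7.71 RPKM at E14.5, so that the middle stage stood above both others (log2 fold change 2.28 ± 0.0947 (SE), adjusted p = 6.57e-09, and log2 fold change -1.70 ± 0.0923 (SE), adjusted p = 5.5e-08, edgeR). Slit3 rose by 0.58 and then 0.84, to 23.8, 20.9 and 26.5 RPKM. The Slit2 window (GRCm38.p6, chr5:47982905-47983204, plus strand, RefSeq), 68.0% G and C, is shown because Slit2 had the largest change of this family in either single step, with its TATA box match at bases 223 to 228 in capitals.
Slit2: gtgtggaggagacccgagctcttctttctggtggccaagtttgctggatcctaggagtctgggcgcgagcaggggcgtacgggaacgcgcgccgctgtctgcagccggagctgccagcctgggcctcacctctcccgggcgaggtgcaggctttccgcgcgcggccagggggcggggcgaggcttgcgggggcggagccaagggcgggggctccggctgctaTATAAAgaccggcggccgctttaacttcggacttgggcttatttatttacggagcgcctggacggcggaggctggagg

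From E10.5 to E12.5 Ntn1 rose while most Unc5 receptors fell. Ntn1 rose from a mean of 9.37 ± 1.17 RPKM (SD) at E10.5 through 39.5, 36.4 and 37.1 RPKM to 68.5, 58.9 and 74.5 RPKM (log2 fold change 2.01 ± 0.105 (SE), adjusted p = 3.5e-08, and log2 fold change 0.84 ± 0.0999 (SE), adjusted p = 2.32e-05, edgeR). Of the 4 Unc5 receptors 3 fell by E12.5 (beside 33.7% of all genes). Unc5c went on falling, from 15.2, 14.9 and 16 RPKM through 6.16, 6.28 and 6.48 RPKM to 1.3, 1.26 and 2.02 RPKM (log2 fold change -1.29 ± 0.14 (SE), adjusted p = 9.41e-06, and log2 fold change -2.05 ± 0.147 (SE), adjusted p = 4.58e-07, edgeR). Unc5b fell from 11.2, 8.86 and 8.64 RPKM to 3.2, 2.66 and 2.58 RPKM and rose to 5.44, 4.19 and 5.35 RPKM (log2 fold changes -1.77 and 0.83), and Unc5a had -1.31 and 0.96. Unc5d was the exception, rising from 0.178, 0.153 and 0.213 RPKM to 5.18, 5.9 and 5.92 RPKM (log2 fold change 4.96 ± 0.265 (SE), adjusted p = 4.2e-08, edgeR) and falling to 2.1, 2.28 and 3.96 RPKM (log2 fold change -1.03).

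**Figure D5:**
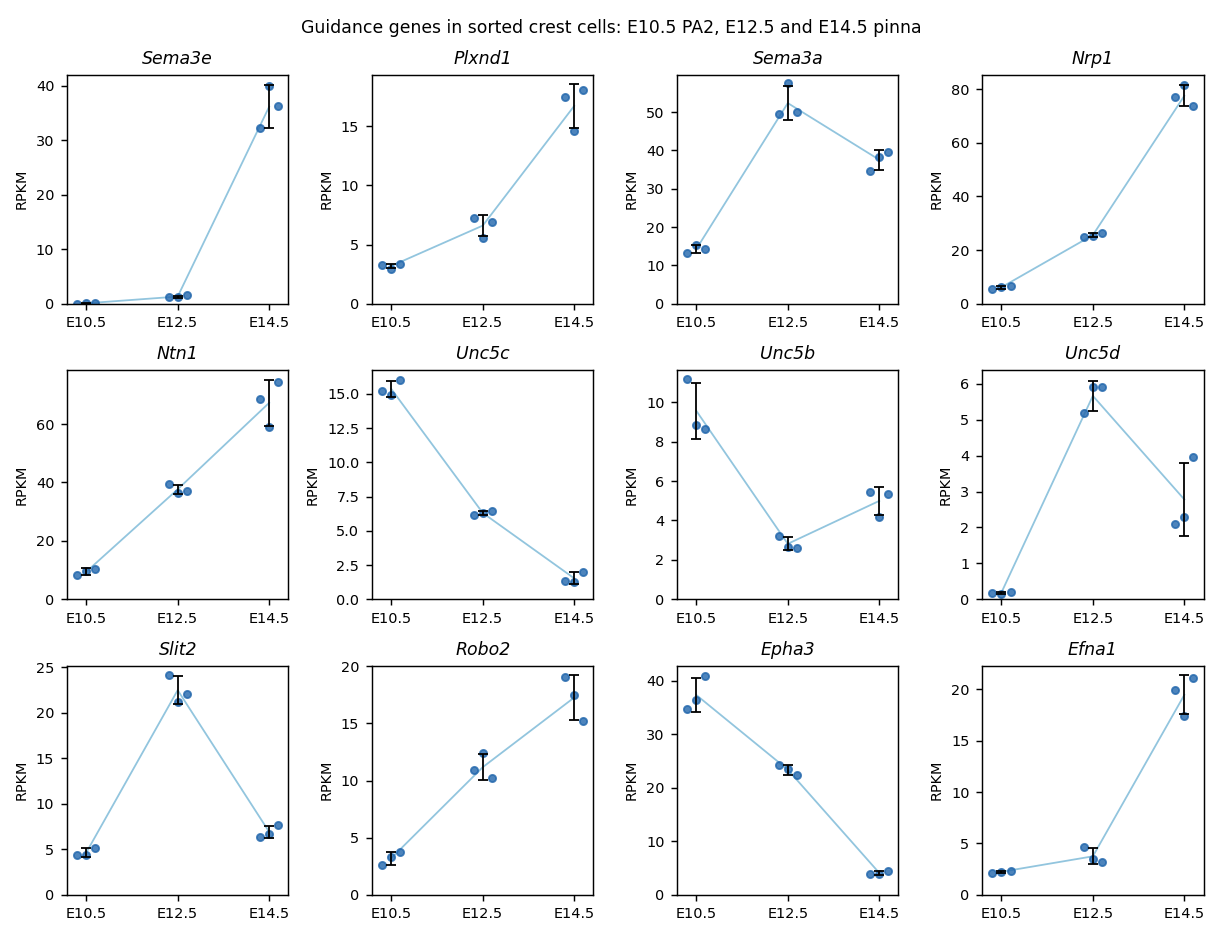
RPKM of 12 guidance genes in sorted crest cells at E10.5 (PA2), E12.5 and E14.5 (pinna), axes from 0, with 3 libraries per stage as points and the mean and SD as bars joined by a line. Sema3e, Plxnd1, Nrp1, Ntn1, Robo2 and Efna1 are highest at E14.5, Sema3a, Slit2 and Unc5d at E12.5, and Epha3, Unc5b and Unc5c at E10.5.

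Markers of crest mesenchyme, of other crest derivatives and of epithelium moved with stage in the sorted cells. The summed crest mesenchyme markers were at 1627 to 1886 CPM at E10.5, 3344 to 3610 CPM at E12.5 and 3594 to 3990 CPM at E14.5. Of these 6 markers 4 were called higher and 1, Dlx2, lower by E12.5. From E12.5 to E14.5 2 were called higher and 4 lower. From E12.5 to E14.5 all 4 tested melanoblast and all 4 glial markers were called higher, of 5 neuronal markers 1 was higher and 2 were lower, and of 3 chondrocyte markers 1 was higher and 2 were lower. From E10.5 to E12.5 the melanoblast list had 3 higher and 1 lower, the glial list 1 higher, the neuronal list 2 higher and 3 lower and the chondrocyte list 3 lower. The summed neuronal markers were at 49.3 to 59.4 CPM at E10.5, 127 to 176 CPM at E12.5 and 12.2 to 19.3 CPM at E14.5. The melanoblast markers were at 60.3 to 80 CPM, 49 to 68.7 CPM and 348 to 397 CPM, and the glial markers at 20.5 to 23.4 CPM, 21.6 to 25.6 CPM and 84.3 to 99.8 CPM, with Foxd3 at 0. The summed chondrocyte markers were at 1144 to 1213 CPM, 591 to 623 CPM and 230 to 278 CPM, with Matn1 at 0. The epithelial markers were at 9.17 to 11.4 CPM, 7.84 to 9.65 CPM and 24.8 to 42.6 CPM. Of 5 tested 3 were called higher and 1 lower by E12.5, and 3 higher and 2 lower from E12.5 to E14.5. Over the whole interval Krt14, Krt5 and Cdh1 rose by 8.57, 6.44 and 5.69 on the log2 scale, and Krt18 and Epcam fell by 3.01 and 1.62. The endothelial markers stayed between 2.62 and 9.62 CPM, with Cldn5 at 0. The part of these shifts in the stage courses was not tested.

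A list of 36 further genes of these pathways, receptors and adaptors outside the families, was read alongside. It was chosen with earlier results of these data known, so its shares beside all genes are a description only. In mutant PA2 1 of the 35 tested rose and 3 fell (11.4% called, beside 0.438% of all genes). Flrt2, an Unc5 ligand, had 0.63 on the log2 scale, Crmp1, which relays semaphorin signals to the cytoskeleton, -0.48, Rgmb, a neogenin ligand, -0.33, and Farp1, a plexin-linked exchange factor, -0.30. In mutant PA3 Flrt1 alone was called, with -1.07, (2.86%, beside 0.216%), and the interaction called 0 of 35 (8 at an unadjusted p below 0.05, 22.9% beside 5.52%). Between the WT arches 12 were higher (34.3%, beside 19.1%) and 7 lower (beside 17.4%) in PA3, with Flrt1, Draxin and Mical2 rising by 2.56, 2.52 and 2.41 and Rgmb, Farp2 and Farp1 falling by 1.18, 0.45 and 0.42. In HIRE1del/del 11 were higher (31.4%, beside 18.7%) and 8 lower (22.9%, beside 14.7%), with Draxin, L1cam and Mical2 rising by 2.65, 2.45 and 2.19 and Rgmb, Flrt2 and Neo1 falling by 0.93, 0.67 and 0.41. The L1cam rise rests on low and spread values, 0.184, 0.127 and 0.156 RPKM in PA2 HIRE1del/del and 0.341, 0.785 and 1.44 RPKM in PA3 HIRE1del/del. From E10.5 to E12.5 19 of 33 rose (57.6%, beside 35.0%), led by Ntng2 (3.61), Flrt1 (3.07) and Kdr, and 4 fell (12.1%, beside 33.7%), led by Crmp1 (-0.90), Dpysl5 (-0.48) and Chn1 (-0.41). From E12.5 to E14.5 14 rose (42.4%, beside 32.6%), led by Mical2 (3.45), Kdr and Flrt1 (2.40), and 12 fell (36.4%, beside 33.1%), led by Crmp1 (-2.17), Farp1 (-1.72) and Ntng2 (-1.26). Over the whole interval 21 rose (63.6%, beside 42.0%) and 9 fell (27.3%, beside 40.0%), and Draxin fell by 1.57. Kdr, the VEGF receptor that works with Nrp1, was at 0.348, 0.407 and 0.329 RPKM, 2.02, 1.78 and 2.17 RPKM and 18.5, 17 and 11.2 RPKM, rising at both steps (2.46 and 2.97). The netrin receptor Dcc, named for its place in the pathway after its values were seen, was at 0.353, 0.37 and 0.457 RPKM, 1.47, 1.19 and 1.37 RPKM and 5.86, 6.81 and 5.72 RPKM, whereas Crmp1 fell from 18.1, 18.1 and 16.9 RPKM through 9.1, 9.66 and 9.66 RPKM to 2.25, 2.3 and 1.74 RPKM.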

How the data were processed

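RNA was read as bulk RNA-seq at 50 bases, paired-end in the genotype series and single-end in the stage series. The authors aligned reads to GRCm38 (mm10) with QuasR and deposited raw counts per gene over UCSC known gene exons. Counting used the orientation opposite to the gene although the kit keeps no strand. The submitters' processing notes name bcl2fastq 2.17 and 2.20. Here a gene was tested where 2 or more libraries of its table reached 1 CPM. TMM factors were 0.983 to 1.01 and 0.946 to 1.04. A single edgeR quasi-likelihood model, holding each group's mean, was made for each table (R 4.3.3, edgeR 4.0.16, limma 3.58.1, DESeq2 1.42.0). Tests were two-sided, with Benjamini-Hochberg adjustment over all genes, a threshold of 0.05 and SE taken as the size of the fold change divided by the square root of F. The fit was tested on simulated data. Each group had 3 libraries, and 3 counts corresponded to 0.0931 to 0.116 CPM in the first table and 0.0612 to 0.116 CPM in the second. All 68 genes had a position in GENCODE M21, from which exon overlaps were taken, and start windows came from RefSeq (GRCm38.p6).

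The genes, partner list and marker lists were chosen with earlier results of these data known. Genes were named by rule: all called genes where at most 10 were called, otherwise the 8 largest calls in each direction with a log2 CPM averaging 1 or more and with replicate ranges apart, the 2 highest members of each family, and the 3 largest partner calls in each direction. Other named genes were chosen after their values were seen. Replicate numbers were checked for pairing through the correlation of deviations from the group means. PA2 and PA3 libraries of the same genotype and number gave r = 0.394, 0.226 and 0.266 in WT and 0.239, 0.307 and 0.354 in HIRE1del/del. Libraries of different genotypes reached r = 0.315, and the labels state no pairing. The block was therefore kept as an alternative, and its value is given where it changes a call. Alternatives were RLE and total-count scaling, other filters, DESeq2, limma-voom, the libraries of the contrast alone, each replicate left out, the replicate block and stricter calls. No value column was left unused.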

Additional observations from a re-analysis of the deposited data

How the results depend on the processing

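With 3 libraries per group, small changes were at the limit of the test. For PA2 HIRE1del/del against WT the count of 2 called guidance genes became 6 with DESeq2 (2 higher, 4 lower) and 0 to 2 when 1 library was left out. In PA3 the count of 0 became 2 with DESeq2, and in the difference between the arches the count of 0 became 1 with DESeq2. Counting stage changes only from a log2 fold change of 1 gave 29, 27 and 34 genes in place of 53, 53 and 55 (E12.5 over E10.5, E14.5 over E12.5 and E14.5 over E10.5). The cause of the differences between tools was not tested. All other counts stayed within 1.5 times the reported one: over the alternatives they were 28 to 40 for the WT arches, 23 to 38 for the HIRE1del/del arches, and 47 to 53, 45 to 54 and 48 to 56 for the stage comparisons without the fold limit. A tally of fold changes under the alternatives covered only the main-fit calls of each comparison picked by the naming rule. Where many genes were called, these were the largest calls with replicate ranges apart, so stability was partly fixed by the choice. Of these fold changes 1194 kept their direction and the call. A further 22 kept their direction and lost the call, and 0 reversed. Lost calls outside this choice are not among the 22, such as those of Epha1, Epha2, Ephb1, Ephb4 and Ephb6 between the WT arches. Nor are the losses under total-count scaling and RLE given below. Genes not called in the main fit were left out of this tally, so it counts no gained calls. Such gains included Epha3, Epha4, Ephb2 and Sema3a in PA2 with DESeq2. Total-count scaling moved the median of all genes to -0.131 in E14.5 over E12.5, and no called guidance gene changed sign under it or under RLE (DESeq2 size factors). Under total-count scaling Sema4c lost its call from E10.5 to E12.5, Plxna3 from E12.5 to E14.5, and Ephb2, Ephb4, Sema5b and Slit1 over the whole interval, and Slit1 also lost it under RLE.

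The replicate block within genotype, which pairs PA2 and PA3 libraries, gave 40 calls in the WT arches (20 higher, 20 lower), 38 in the HIRE1del/del arches (17 higher, 21 lower) and 1 in the difference between the arches. Between WT and HIRE1del/del, and between stages, same-numbered libraries shared only a number, with correlations of both signs. There the replicate block gave 5 calls in PA2 (2 higher, 3 lower), with Epha3 (adjusted p = 0.00233), Epha4 (0.0482) and Sema3a (0.0427) beside Sema5a and Ntn1 (edgeR).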
